A study of Rattus norvegicus with 22 samples.

Results

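The calcaneal tendon (CT) of rats was compared between 28 days (28D) and 3 days (3D) after an injury of the gastrocnemius muscle, over 22 target genes measured by qRT-PCR. The comparison took every animal that the sample labels place at these times, 6 in 28D and 5 in 3D, which were 11 of the 22 animals measured. The other animals, 6 taken at 14 days (14D) and 5 without injury (C), entered the shared estimate of the spread, and C set the zero of the scale. All were male Wistar rats, 4 months old at the start, and no genetic change is described. In 3D, 14D and 28D the belly of the gastrocnemius was frozen under anaesthesia with a metal bar cooled in liquid nitrogen, a cryolesion, while C was not injured and no sham operation is described. The labels call the sampled tendons injured, but the methods describe an injury of the muscle only. The 28D rats were also older when sampled than the 3D rats, and age and time after injury cannot be told apart. The whole tendon was ground, so all of its cells entered 1 RNA sample, and fewer cells of a type and less RNA per cell cannot be told apart.

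Tendon cells, or tenocytes, lie in rows between fibers that consist mainly of type I collagen, and they sense the pull of the attached muscle. Transforming growth factor beta, which acts through SMAD proteins in the nucleus, and the transcription factors scleraxis, mohawk and EGR1 are known to set the output of collagens and small proteoglycans in these cells. Metalloproteinases and their inhibitors then govern how fast the matrix is turned over.

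For each gene and rat the deposited tables hold the cycle threshold (Ct), where a later Ct means less mRNA, and the Ct minus that of the reference gene RPLP0, a protein of the ribosomal stalk. Log2 expression is this difference with its sign turned, with the mean of C set to 0, and 1 unit on it is a doubling. Of 242 values in 28D and 3D, 230 were used, 131 in 28D and 99 in 3D. In 3D, 10 values equalled the mean of the other animals of the group within 1e-06 and were left out as filled in, 8 of them in replicate 3, and 1 well was blank in 28D and 1 in 3D. The Ct of the used values ran between 20.8 and 38.5 with a median of 30.0. The markers of tenocytes were all amplified, but some of them late in 3D. The Ct of TNMD was 21.8 to 25.7 in 28D and 22.6 to 30.8 in 3D. That of FMOD was 21.9 to 28.7 in 28D and 20.8 to 31.0 in 3D. That of SCX was 28.1 to 31.1 in 28D and 28.7 to 33.7 in 3D. The highest Ct of MKX was 30.6 in 28D and 36.6 in 3D. For DCN the highest was 29.5 in 28D and 34.1 in 3D, and for COL1A1 30.9 in 28D and about 35 in 3D. These highest 3D values of MKX, DCN and COL1A1 all belonged to replicate 2. The panel has no marker of muscle, endothelium, fat or blood, so other cells in the samples were not measured.

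Single animals stood apart before any comparison. Replicate 2 of 3D amplified late: all of its 21 measured genes lay 4.10 to 7.83 cycles after the mean of the other 3D animals, with a median of 6.40, and its RPLP0 lay 5.08 cycles after theirs. It held 12 of the 13 wells above Ct 35 in 3D, where a Ct is less precise, and 28D had 6 such wells. RPLP0 had a Ct of 30.0, 27.8, 29.5, 26.8, 29.2 and 29.8 in replicates 1 to 6 of 28D, and of 27.5, 32.3, 26.1, 27.9 and 27.1 in replicates 1 to 5 of 3D. The reference gene thus averaged 28.8 ± 1.28 cycles in 28D (SD, n = 6) and 28.2 ± 2.37 cycles in 3D (SD, n = 5), a difference of 0.65 cycles (two-sided exact permutation p = 0.587), which grew to 1.66 cycles once replicate 2 of 3D was omitted (exact permutation p = 0.0667). In replicate 5 of 3D, 11 measured genes had been normalized with 28.5, the mean RPLP0 Ct of the other 3D animals, which is 1.34 cycles after its own value.

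**Figure D1:**
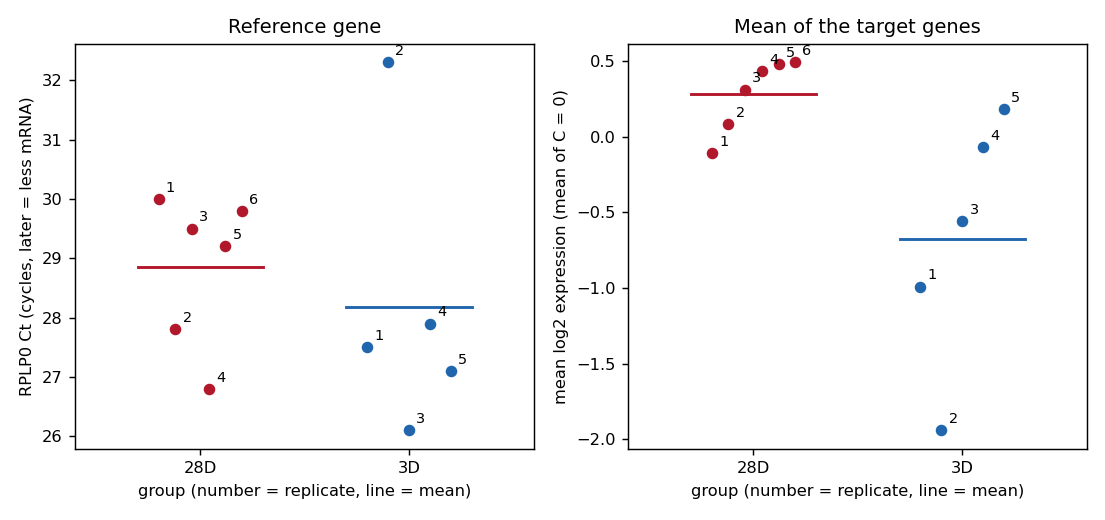
Left, Ct of the reference gene RPLP0 in cycles, and right, the log2 expression averaged over the measured target genes of each animal, for 28D and 3D. Points are animals numbered by replicate and lines are group means. Replicate 2 of 3D has the latest RPLP0 Ct, 32.3, and the lowest mean, -1.94.

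Of the 22 genes, 7 rose in 28D against 3D (31.8% of genes tested, limma, adjusted p under 0.05) and none fell. They were the transcription factor MKX and the tenocyte membrane protein TNMD, the matrix genes COL1A1, DCN and FN, the metalloproteinase MMP-2 and its inhibitor TIMP-2, with log2 differences between 1.11 and 2.32, or 2.15-fold to 5.00-fold. Before adjustment 11 genes (50.0%) had a limma p under 0.05, all of them higher in 28D, and 9 (40.9%) an exact permutation p under 0.05. The difference was above 0 in 20 of the 22 genes, with a median of 1.07. In 6 genes (27.3%) every 28D animal lay above every 3D animal, namely TGF-β1, COL1A1, MMP-2, TIMP-2, MKX and TNMD, and no gene had the opposite separation.

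**Figure D2:**
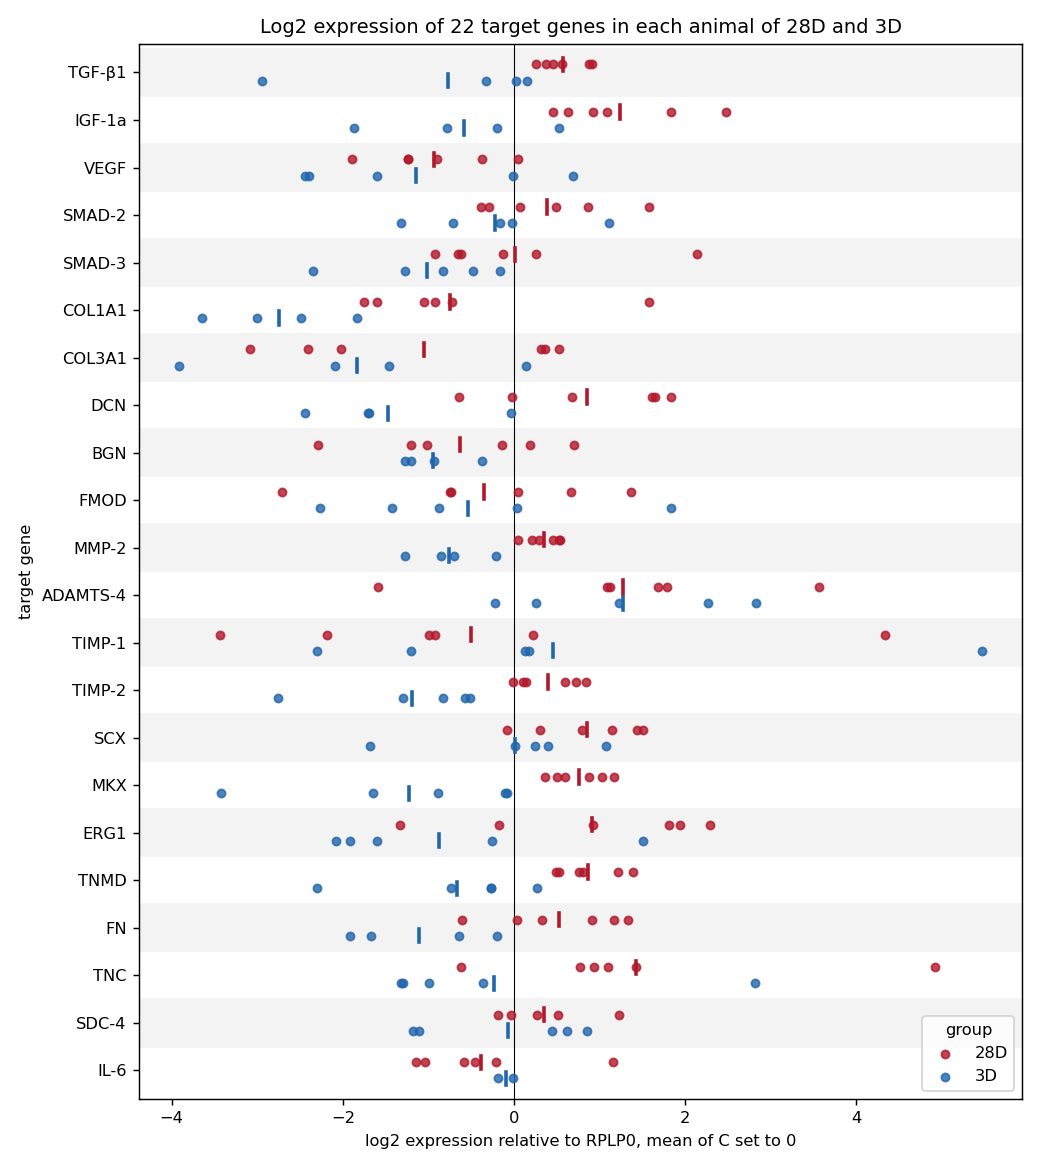
Log2 expression relative to RPLP0 (mean of C = 0) on the horizontal axis, 1 point for each measured animal of 28D and 3D, target genes down the page, short bars at group means. The 28D and 3D points do not overlap in TGF-β1, COL1A1, MMP-2, TIMP-2, MKX and TNMD, and are mixed in genes such as FMOD, BGN and ADAMTS-4.

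All calls were made relative to RPLP0. With the Ct alone no gene passed in limma, and none had an unadjusted limma or exact p under 0.05. The median difference over the 22 genes was then 0.80. The Ct alone is not corrected for the amount of RNA, and replicate 2 of 3D, late in all its measured genes, stays late in it. On this scale the 7 genes differed by 2.19 (DCN), 1.87 (COL1A1), 1.61 (MKX), 1.50 (FN), 1.15 (TNMD), 0.97 (MMP-2) and 0.94 (TIMP-2). With the mean of the target genes, the panel mean, in place of RPLP0 the median was 0.10, 12 differences were positive and 10 negative, no gene passed, and 4 had an unadjusted limma p under 0.05 and 3 an exact p under 0.05. The 7 genes then stood at 1.33 (DCN), 1.03 (MKX), 1.01 (COL1A1), 0.65 (FN), 0.63 (TIMP-2), 0.57 (TNMD) and 0.12 (MMP-2). This reference holds the average difference of the panel near 0 by design, so a small median and mixed signs follow from it. It ranks the genes against the panel and cannot show whether the panel as a whole moved. No gene passed with exact p-values adjusted over all genes and pairs of groups either, a test whose smallest p is bounded by the few animals.

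The mean over the target genes measured in each animal, which shows how far the panel moved as a whole against RPLP0, was -0.11, 0.08, 0.31, 0.43, 0.48 and 0.49 in replicates 1 to 6 of 28D. In 3D it was -0.99, -1.94, -0.56, -0.07 and 0.18 in replicates 1 to 5. The 3D animals were spread wider, and replicates 4 and 5 reached into the range of 28D. The mean of replicate 5 includes the 11 genes normalized with 28.5, which sets each of them 1.34 higher than its own RPLP0 Ct would. The group means were 0.28 ± 0.25 in 28D (SD, n = 6) and -0.68 ± 0.84 in 3D (SD, n = 5), 0.96 apart (two-sided exact permutation p = 0.0130), and without replicate 2 of 3D 0.64 apart (exact permutation p = 0.0286). The animals do not share the same genes in this mean. Over the 12 genes measured in all 11 animals it was 0.42 ± 0.43 in 28D (SD, n = 6) and -0.45 ± 1.02 in 3D (SD, n = 5), a difference of 0.87 (exact permutation p = 0.0779). All of these 12 genes but VEGF and TIMP-2 had been normalized with 28.5 in replicate 5 of 3D. With 1 RPLP0 Ct for each animal, an alternative chosen after seeing the data, the mean over the measured target genes differed by 1.10 (exact permutation p = 0.00433).

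**Figure D3:**
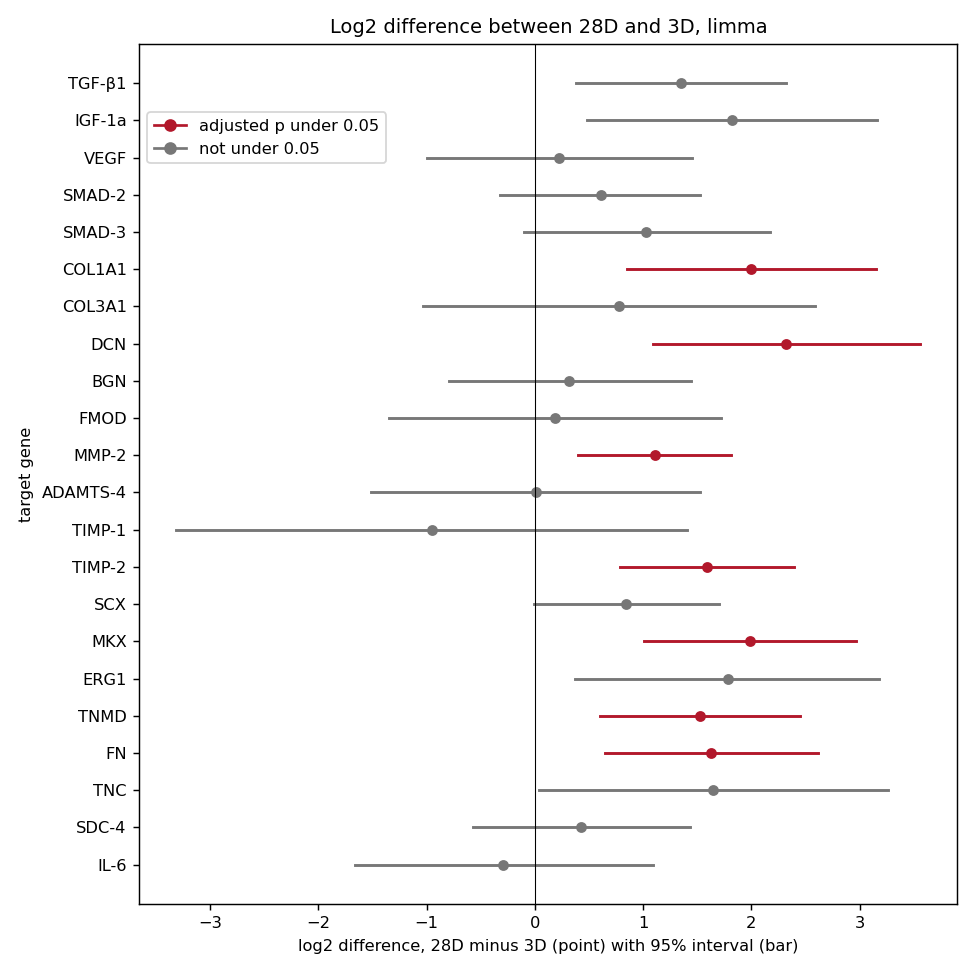
Log2 difference of 28D minus 3D for each target gene (point) with its 95% interval (bar) from limma, on a horizontal axis in log2 units. Red marks the 7 genes with an adjusted p under 0.05, whose intervals all lie above 0, while the widest interval is that of TIMP-1, -3.31 to 1.41.

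Among the secreted growth factors, TGF-β1, a main inducer of matrix synthesis, was separated between the groups but did not pass. Its log2 expression was 0.56, 0.37, 0.26, 0.46, 0.91 and 0.88 in replicates 1 to 6 of 28D, against -0.33, -2.95, 0.02 and 0.15 in replicates 1, 2, 4 and 5 of 3D. Every 28D animal was higher, and replicate 2 of 3D lay far below the rest. The difference was 1.35 with an SE of 0.47 (limma adjusted p = 0.0772, exact permutation p = 0.00476, the smallest that 6 against 4 animals allow), which shrank to 0.62 when replicate 2 of 3D was omitted (adjusted p = 0.209). Omitting replicate 4 (1.61, adjusted p = 0.0372) or replicate 5 of 3D (1.66, adjusted p = 0.0344) let it pass. It also passed by the procedures of the methods, least squares and Dunn with Bonferroni adjustment over the pairs (adjusted p = 0.0452 and 0.0193), with every deposited ΔCt value (adjusted p = 0.0463), on the linear scale (adjusted p = 0.0484) and with adjustment over this pair of groups alone (adjusted p = 0.0241). IGF-1a, an insulin-like growth factor that drives cell growth and collagen synthesis, had values of 0.46 to 2.47 in 28D with a median of 1.0 (n = 6), against -0.20, -1.87, 0.52 and -0.78 in replicates 1, 2, 4 and 5 of 3D. Only the lowest 28D animal lay within the 3D range. The difference, 1.82 with an SE of 0.64, did not pass (limma adjusted p = 0.0786). It passed without replicate 4 of 3D (2.18, adjusted p = 0.0423), with every deposited ΔCt value (adjusted p = 0.0423), with only 28D and 3D in the model (adjusted p = 0.0334) and with adjustment over this pair of groups alone (adjusted p = 0.0248). VEGF, which drives the growth of blood vessels, lay below the mean of C in 5 of 6 animals of 28D and 4 of 5 of 3D, and the groups overlapped. Its difference was 0.22 with a 95% interval of -1.0 to 1.45 (limma adjusted p = 0.888). The median of the 3 growth factors was 1.35, beside 1.07 over all genes, and with the panel mean as the reference the difference of VEGF turned to -0.74.

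SMAD-2 and SMAD-3 carry the signal of activated TGF-β receptors into the nucleus, and neither passed. In SMAD-3, 28D ranged between -0.92 and 2.14 with a median of -0.37 (n = 6), against -1.27, -2.35, -0.48, -0.83 and -0.17 in 3D, and 3 of the 6 values of 28D exceeded the whole 3D range. The highest 28D value belonged to replicate 4, and the next was 0.25. The difference was 1.03, with a 95% interval of -0.10 to 2.17 (limma adjusted p = 0.275). For SMAD-2 it was 0.61, with an interval of -0.32 to 1.53 (adjusted p = 0.450), and it turned to -0.35 with the panel mean as the reference.

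The regulators of the tendon lineage and TNMD held 2 of the 7 genes that rose, MKX and TNMD, and the median of their 4 differences was 1.65, beside 1.07 over all genes. MKX, the homeobox factor mohawk, which in mice is needed for normal collagen fibers in tendon, had log2 expression of 0.36, 0.60, 0.87, 1.17, 1.03 and 0.50 in replicates 1 to 6 of 28D. In 3D the values were -1.65, -3.43, -0.89, -0.08 and -0.11 in replicates 1 to 5. All 28D animals lay above the mean of C and all 3D animals below it. The rise was 3.96-fold, a log2 difference of 1.99 with an SE of 0.47 (limma adjusted p = 0.0145, exact permutation p = 0.00216, the smallest that 6 against 5 animals allow). MKX passed in all 22 fits that omitted 1 animal, with differences of 1.44 to 2.27 and adjusted p-values of at most 0.0438, the smallest difference being that without replicate 2 of 3D.

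TNMD, tenomodulin, a membrane protein that marks mature tenocytes, had values of 0.53, 0.80, 0.49, 1.21, 1.39 and 0.76 in replicates 1 to 6 of 28D. In replicates 1 to 5 of 3D it had -0.74, -2.30, -0.27, 0.27 and -0.27. The groups did not overlap, though the gap between the lowest 28D and the highest 3D animal was small. TNMD rose 2.88-fold, or 1.53 on the log2 scale with an SE of 0.45 (limma adjusted p = 0.0291). The call was lost without replicate 1 of 3D (1.51, adjusted p = 0.0970), replicate 2 of 3D (1.12, adjusted p = 0.0876) or replicate 5 of 28D (1.42, adjusted p = 0.0685). The value of replicate 6 of 28D was 4.52 in the deposited fold change table, on the log2 scale, in place of 0.76, and with that table the difference was 2.15 (adjusted p = 0.0210).

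SCX, scleraxis, the earliest known marker of the tendon lineage, had values of 0.30, 1.14, 1.51, -0.08, 1.44 and 0.79 in 28D, against 0.24, 0.01, -1.68, 0.40 and 1.07 in 3D. The groups overlapped, although 3 of the 6 values of 28D exceeded the whole 3D range. The difference of 0.84 had an SE of 0.41 and did not pass (limma adjusted p = 0.239), its 95% interval was -0.01 to 1.70, and the panel mean as the reference gave -0.12. With 1 RPLP0 Ct for each animal the difference was 1.11 and did not pass either (limma adjusted p = 0.0599). The deposited table gives Egr1 as the gene of the assay called ERG1, a transcription factor that responds within minutes to load and growth factors. Its values were 0.92, -0.18, 2.29, -1.33, 1.81 and 1.94 in 28D and -1.60, -2.08, -1.92, -0.26 and 1.50 in 3D. Replicate 5 of 3D was high and replicate 4 of 28D was low, so that the groups overlapped widely. The difference was 1.78 with an SE of 0.68 (limma adjusted p = 0.102). Omitting replicate 5 of 3D (2.37, adjusted p = 0.0244) or replicate 4 of 28D (2.23, adjusted p = 0.0284) let it pass, as did 1 RPLP0 Ct for each animal (2.05, adjusted p = 0.0298) and adjustment over this pair of groups alone (adjusted p = 0.0339).

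Promoters are shown for the genes that rose and have one in the RefSeq table of assembly GRCr8, since these genes rose in the same comparison: 3 of the 7 genes, MKX, TNMD and TIMP-2, an inhibitor of metalloproteinases, and 15 of the 22 genes of the panel. Each run is the 250 bases before the annotated start of the gene, 5′ to 3′ on the strand of the gene, with every CG dinucleotide in capitals.
MKX: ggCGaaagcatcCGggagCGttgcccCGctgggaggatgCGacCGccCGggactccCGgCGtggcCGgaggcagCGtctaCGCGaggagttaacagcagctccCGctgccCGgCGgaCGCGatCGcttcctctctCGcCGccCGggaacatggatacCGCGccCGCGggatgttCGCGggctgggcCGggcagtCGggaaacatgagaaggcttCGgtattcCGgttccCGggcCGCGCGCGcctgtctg
TNMD: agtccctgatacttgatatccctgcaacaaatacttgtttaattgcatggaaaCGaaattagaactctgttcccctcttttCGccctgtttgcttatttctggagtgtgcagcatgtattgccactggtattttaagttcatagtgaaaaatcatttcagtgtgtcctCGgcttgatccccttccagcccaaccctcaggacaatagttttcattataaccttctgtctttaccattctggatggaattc
TIMP-2: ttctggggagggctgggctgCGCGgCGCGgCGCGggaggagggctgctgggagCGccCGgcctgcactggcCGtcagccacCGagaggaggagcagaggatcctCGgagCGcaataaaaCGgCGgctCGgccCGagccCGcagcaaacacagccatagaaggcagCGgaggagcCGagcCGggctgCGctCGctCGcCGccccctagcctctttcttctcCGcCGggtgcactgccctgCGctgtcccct
The first lies at chr17:59851161-59851410 on the minus strand, the second at chrX:101350182-101350431 on the plus strand and the third at chr10:104089215-104089464 on the minus strand. MKX had 37 CG dinucleotides and 71.2% G and C, more CG than 98.1% of the 33469 promoters in the table, and TIMP-2 had 27 and 72.0%, more than 92.3%. TNMD had 3 CG dinucleotides and 40.8% G and C, against a median of 5 and 51.2% over all promoters. The 3 promoters thus include CG-rich ones and a CG-poor one. Neither an E-box, written CANNTG, the word that proteins of the scleraxis class bind, nor the EGR words GCGTGGGCG and GCGGGGGCG stood in any of the 3 windows on either strand, and 65.5% and 2.9% of all promoters hold them. A missing word says only that these letters are not in this window.

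Of the fibrillar collagens 1 of 2 rose, and their median was 1.39, beside 1.07 over all genes. COL1A1, a chain of type I collagen and the main structural product of tenocytes, had values of -1.75, -0.92, -1.60, 1.58, -0.72 and -1.05 in replicates 1 to 6 of 28D. In 3D it had -3.00, -3.65, -1.83 and -2.49 in replicates 1, 2, 4 and 5. The lowest 28D animal lay just above the highest 3D animal, and the mean of C exceeded 5 of the 6 values of 28D and every value of 3D. The rise was 4.0-fold, 2.0 on the log2 scale with an SE of 0.55 (limma adjusted p = 0.0262). The call was lost if replicate 1 of 3D was omitted (1.91, adjusted p = 0.0970), if replicate 2 of 3D was (1.70, adjusted p = 0.0876), or with wells above Ct 35 taken as missing (1.70, adjusted p = 0.0851). It was also lost by Dunn's procedure (adjusted p = 0.485) and on the linear scale (adjusted p = 0.414). Replicate 4 of 28D, at 1.58, lay far above the other 28D animals, and without it the difference was 1.53. COL3A1, the collagen of thin fibers and of early repair, had 3 low animals, at -2.02, -3.09 and -2.41, and 3 near C, at 0.31, 0.53 and 0.36, in 28D. In replicates 1 to 4 of 3D it had -2.09, -3.91, -1.46 and 0.14. The groups covered nearly the same range, and the difference of 0.78 had a 95% interval of -1.03 to 2.59 (limma adjusted p = 0.652). It turned to -0.40 with the panel mean as the reference.

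Small leucine rich proteoglycans bind collagen fibrils and set their width and spacing. DCN, decorin, the most abundant of them in tendon, rose 5.00-fold, which was the largest difference of the panel, while BGN and FMOD did not pass, and the median of the 3 was 0.32, beside 1.07 over all genes. DCN had 0.68, -0.03, -0.64, 1.83, 1.65 and 1.61 in replicates 1 to 6 of 28D, against -1.71, -2.44, -0.04 and -1.69 in replicates 1, 2, 4 and 5 of 3D. Replicate 3 of 28D lay below replicate 4 of 3D, replicate 2 of 28D just above it, and the others were apart. The log2 difference was 2.32 with an SE of 0.60 (limma adjusted p = 0.0177, exact permutation p = 0.0143), and the call was lost without replicate 1 of 3D (2.24, adjusted p = 0.0690) or replicate 2 of 3D (2.0, adjusted p = 0.0817), and on the linear scale (adjusted p = 0.135). BGN, biglycan, ranged between -2.29 and 0.70 in 28D (median -0.58, n = 6) and between -1.27 and -0.38 in 3D (n = 4), and its difference was 0.32 with an interval of -0.79 to 1.44 (adjusted p = 0.779). FMOD, fibromodulin, ranged between -2.71 and 1.36 in 28D (median -0.35, n = 6) and between -2.27 and 1.83 in 3D (n = 5), with a difference of 0.19 and an interval of -1.35 to 1.72 (adjusted p = 0.933). In both genes the groups overlapped, and with the panel mean as the reference the differences were -0.66 and -0.77.

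Among the proteases and inhibitors, MMP-2 and TIMP-2 rose and ADAMTS-4 and TIMP-1 did not pass, with a median of 0.56 over the 4, beside 1.07 over all genes. MMP-2, a gelatinase that cuts denatured collagen and basement membrane, had values of 0.05, 0.54, 0.21, 0.52, 0.46 and 0.29 in replicates 1 to 6 of 28D. In 3D it had -0.86, -1.27, -0.21 and -0.70 in replicates 1, 2, 4 and 5. The 28D animals lay within 1 unit of each other, all above the mean of C, and all of 3D lay below it. The rise was 2.15-fold, or 1.11 with an SE of 0.34 (limma adjusted p = 0.0403, exact permutation p = 0.00476). Of the 7 calls this was the one nearest the threshold: it was lost in 13 of 22 omissions of 1 animal, with differences of 0.94 to 1.29 and adjusted p-values up to 0.105, the smallest difference being that without replicate 2 of 3D. It was also lost with only 28D and 3D in the model (adjusted p = 0.0512) and on the linear scale (adjusted p = 0.0662), and with the panel mean as the reference it was 0.12 (adjusted p = 0.812).

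TIMP-2, an inhibitor of MMP-2 that is also needed to activate the precursor of that enzyme, had -0.01, 0.14, 0.72, 0.84, 0.59 and 0.10 in replicates 1 to 6 of 28D. The values in replicates 1 to 5 of 3D were -1.30, -2.76, -0.83, -0.57 and -0.51. The groups did not overlap, and 28D stood near or above the mean of C while all of 3D stood below it. The gene rose 3.01-fold, 1.59 on the log2 scale with an SE of 0.39 (limma adjusted p = 0.0145, exact permutation p = 0.00216). Like MKX, it passed in each omission of 1 animal, with differences between 1.20, without replicate 2 of 3D, and 1.76, and adjusted p-values of at most 0.0438.

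TIMP-1, an inhibitor of many metalloproteinases, had the widest spread of the panel. It had -0.99, -0.92, 4.33, -2.19, -3.44 and 0.22 in replicates 1 to 6 of 28D and 0.13, -1.21, -2.30, 0.17 and 5.47 in replicates 1 to 5 of 3D. One animal of each group lay more than 4 units above the next. The difference was -0.95 with an SE of 1.14 and a 95% interval of -3.31 to 1.41 (limma adjusted p = 0.672), and it ran between -1.91, without replicate 3 of 28D, and 0.31, without replicate 5 of 3D. ADAMTS-4, an aggrecanase that cuts large proteoglycans, had 1.12, 1.08, 3.56, -1.59, 1.79 and 1.68 in 28D and 1.22, -0.22, 0.25, 2.26 and 2.83 in 3D. The means were equal, 1.27 in 28D and 1.27 in 3D, with an interval of the difference of -1.51 to 1.53 (adjusted p = 0.995). Its sign turned with the deposited fold change table, which gave -1.46.

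Of the adhesion and matricellular genes 1 of 3 rose, FN, with a median of 1.63 over the 3, beside 1.07 over all genes. FN, fibronectin, an adhesive matrix protein on which collagen fibrils are laid down, had 0.33, 0.03, -0.61, 0.91, 1.17 and 1.33 in replicates 1 to 6 of 28D. It had -1.67, -0.64, -0.20 and -1.92 in replicates 1, 2, 4 and 5 of 3D. Only replicate 3 of 28D lay within the 3D range. FN rose 3.10-fold, 1.63 on the log2 scale with an SE of 0.48 (limma adjusted p = 0.0291, exact permutation p = 0.0190). The call was lost without replicate 1 (1.45, adjusted p = 0.105) or replicate 5 of 3D (1.36, adjusted p = 0.0864), and without replicate 5 (1.51, adjusted p = 0.0685) or replicate 6 of 28D (1.47, adjusted p = 0.0665). Dunn's procedure (adjusted p = 0.0641) and the linear scale (adjusted p = 0.197) did not call it either.

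TNC, tenascin C, a matricellular protein of loaded and healing tendon, had 1.42, 0.77, 4.92, -0.62, 1.10 and 0.93 in 28D against -1.0, -1.32, -1.30, -0.36 and 2.82 in 3D. Apart from replicate 4 of 28D and replicate 5 of 3D the groups were separate. The difference of 1.65 had an SE of 0.78 and did not pass (limma adjusted p = 0.237). Without replicate 5 of 3D it was 2.42 and passed (adjusted p = 0.0324), and without replicate 3 of 28D it was 0.95. SDC-4, syndecan-4, a heparan sulfate receptor in cell adhesions, ranged between -0.19 and 1.22 in 28D (n = 5) and between -1.18 and 0.85 in 3D (n = 5), a difference of 0.43 with an interval of -0.57 to 1.43 (adjusted p = 0.652). It turned to -0.49 with the panel mean as the reference and to -1.14 with the blank well of 28D set to Ct 40.

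IL-6, the only cytokine of the panel, was near the limit of the assay. In 28D its values ran between -1.15 and 1.15 with a median of -0.53 (n = 6), and 5 of 6 wells lay above Ct 35, with a mean Ct of 36.7. In 3D 2 animals were measured, replicate 1 at -0.19 and replicate 4 at -0.01. The value of replicate 4 had been normalized with an RPLP0 Ct of 27.3, against 27.9 for the other genes of that animal. The difference was -0.29 with an interval of -1.66 to 1.09 (limma adjusted p = 0.854), and it was 1.03 with the blank well of 3D set to Ct 40. With 1 RPLP0 Ct for each animal it was -0.61 (limma adjusted p = 0.581).

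**Figure D4:**
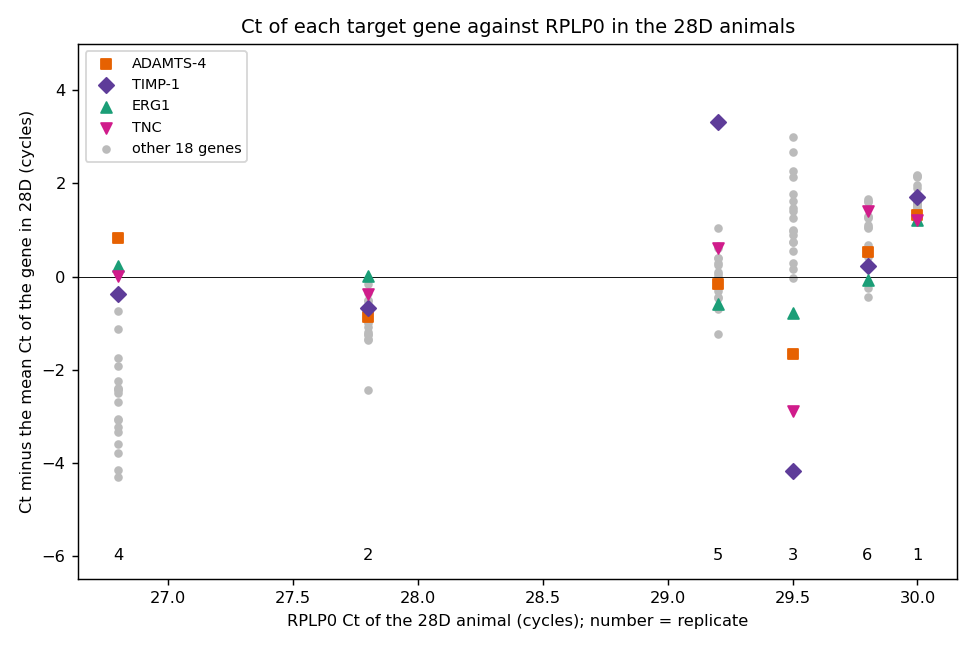
Ct of each target gene minus its mean in 28D (cycles, vertical axis) against the RPLP0 Ct of the animal (cycles, horizontal axis) for the 6 animals of 28D, whose replicate numbers stand along the bottom. In replicate 3 TIMP-1, TNC, ADAMTS-4 and ERG1 lie below 0 while 17 of the other 18 genes lie above it.

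In 28D, TIMP-1, TNC, ADAMTS-4 and ERG1 were picked out as the genes with an earlier Ct in replicate 3 than in replicate 4. In replicate 3 the other 18 genes amplified 1.09 to 6.75 cycles after those of replicate 4, with a median of 3.52, and RPLP0 amplified 2.68 cycles later. These 4 genes amplified earlier in replicate 3, with a Ct in replicate 3 minus that in replicate 4 of -3.83 cycles for TIMP-1, -2.86 for TNC, -2.47 for ADAMTS-4 and -0.94 for ERG1. The highest 28D value of each of the 4 genes belonged to replicate 3, and the lowest values of TNC, ADAMTS-4 and ERG1 to replicate 4. With RPLP0 later in replicate 3, the way these genes were picked already places replicate 3 above replicate 4. SCX, among the other 18 genes, also had its highest value in replicate 3 (1.51) and its lowest in replicate 4 (-0.08). In the deposited fold change table the values of replicates 4 and 5 of TIMP-1, TNC and ADAMTS-4 stand in the columns of replicates 3 and 4, matched within 0.01 on the log2 scale. The values of replicate 3, 4.33, 4.92 and 3.56, stand in no 28D column of that table. Nor do those of replicate 6, 0.22, 0.93 and 1.68, whose own column is blank there. The column of replicate 5 there holds -3.01 for TIMP-1, -1.12 for TNC and -3.38 for ADAMTS-4. These match no 28D value from the ΔCt of the same gene, so a shift by 1 column does not account for all values. Which assignment is right was not tested. Without the values absent from the fold change table, TNC passed (1.66, adjusted p = 0.0401), MMP-2 did not (1.11, adjusted p = 0.0550) and ADAMTS-4 was at -0.67.

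The 3D animals differed more among themselves than the 28D animals in 15 of the 22 genes by SD. In 28D, replicate 4 was the highest animal in 11 genes and replicate 3 the lowest in 9. In 3D, replicates 4 and 5 were the highest in 10 genes each, and replicate 2 was the lowest in 17 of its 21. All the genes led by replicate 5 but TGF-β1 and TIMP-2 had been normalized with 28.5, which is 1.34 cycles after its own RPLP0 Ct. Without replicate 2 of 3D, 3 genes passed, TIMP-2, MKX and FN, and without replicate 1 of 3D 2 genes passed, TIMP-2 and MKX. With replicate 5 of 28D left out 4 passed. The part of the late Ct of replicate 2 in its low values was not tested.

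**Figure D5:**
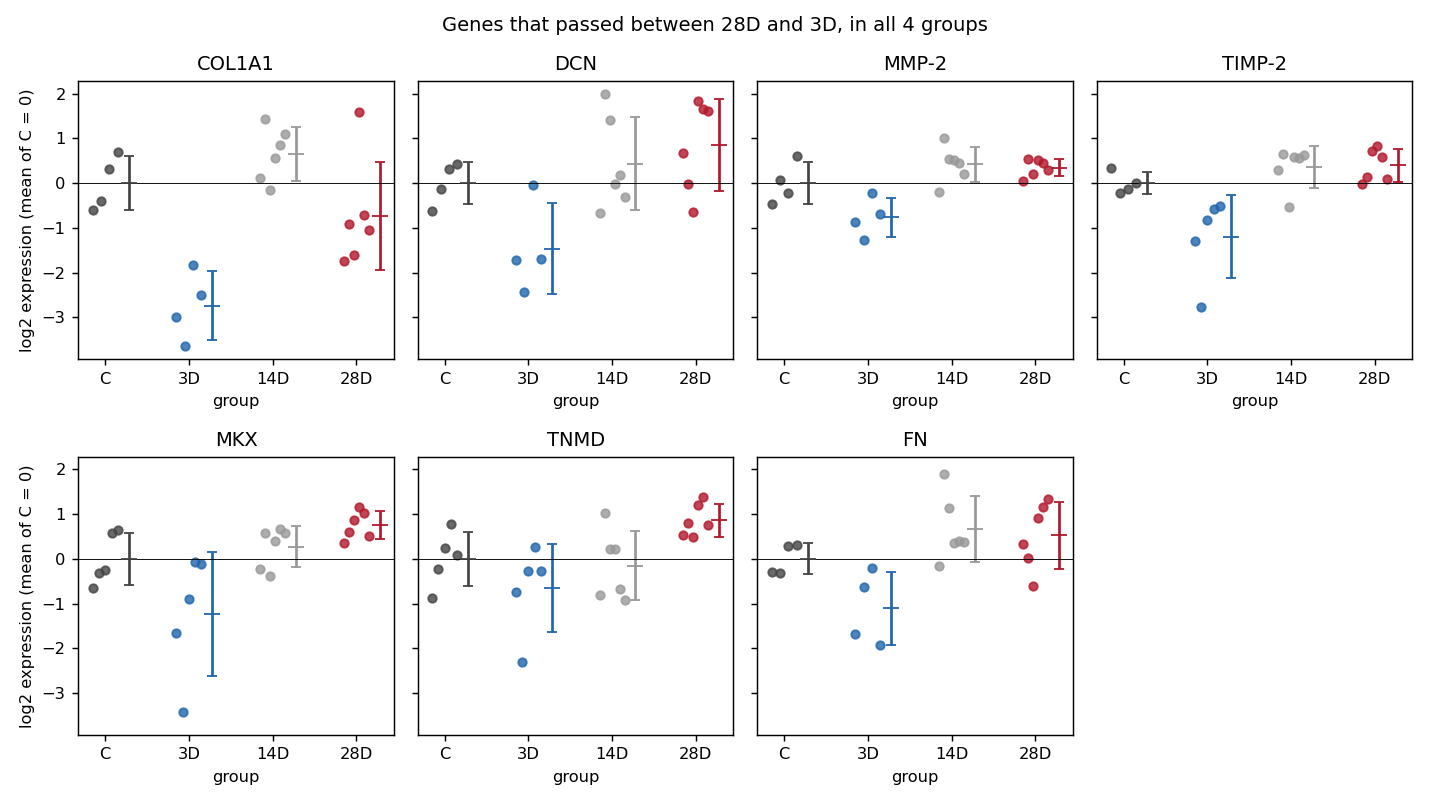
Log2 expression (mean of C = 0, vertical axis) of the 7 genes that rose between 28D and 3D, in C, 3D, 14D and 28D (horizontal axis), with 1 point for each animal and bars for the mean ± SD. At 3D, 14D and 28D the mean of MKX is -1.23, 0.27 and 0.75, and that of TIMP-2 is -1.19, 0.36 and 0.40. Some 14D values of the genes other than MKX and TNMD differ in the deposited fold change table.

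Set against the other groups, which share these animals, 28D differed from C in none of the 22 genes by adjusted limma p (0 with an unadjusted limma p under 0.05, 6 with an exact permutation p under 0.05), and 3D differed from C in 1 gene (4.55%), COL1A1, at -2.74 (adjusted p = 0.0117). Before adjustment, 5 genes had a limma p under 0.05 between 3D and C, all lower in 3D, and 3 an exact permutation p under 0.05. Of the 7 genes all but COL1A1 had a mean above C in 28D and below C in 3D. Relative to C, MKX averaged 0.75 (28D) and -1.23 (3D), TNMD 0.86 (28D) and -0.66 (3D), and DCN 0.85 (28D) and -1.47 (3D). The zero of DCN includes replicate 1 of C, whose DCN Ct, 30.1, equals its BGN Ct. That value implies an RPLP0 Ct of 30.1, against 26.9 for the other genes of that animal. FN averaged 0.53 (28D) and -1.11 (3D), TIMP-2 0.40 (28D) and -1.19 (3D), MMP-2 0.34 (28D) and -0.76 (3D), and COL1A1 -0.74 (28D) and -2.74 (3D). At 14D, 6 genes (27.3%) were higher than at 3D, namely COL1A1 (3.39), DCN (1.91), FN (1.77), TIMP-2 (1.56), MKX (1.50) and MMP-2 (1.18). TNMD was at 0.51 (adjusted p = 0.522). In the deposited fold change table some 14D values of these 6 genes differ, except for MKX. DCN, FN and MMP-2 are lower there in replicates 2 and 3 of 14D. DCN in replicate 3 is at -0.17 there, against 1.42 from the ΔCt. COL1A1 and TIMP-2 are higher there in replicate 3, at 0.70 against -0.15 and at 0.53 against -0.54. Whether the 14D calls hold with that table was not tested. Between 28D and 14D no gene passed in limma, 2 had an unadjusted limma p under 0.05 and 3 an exact p under 0.05. Of COL1A1 the mean was -0.74 in 28D and 0.65 in 14D (adjusted p = 0.0786).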

How the data were processed

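Total RNA of each tendon was reverse transcribed and quantified with TaqMan qRT-PCR assays run in technical duplicate, per the methods and labels. The authors deposited 3 tables for 22 target genes and 22 animals: the Ct as measured, in cycles; the ΔCt, in which the authors subtracted the Ct of RPLP0, a log2 scale with reversed sign; and the relative expression 2^−ΔΔCt, a ratio to C that the authors computed from ΔCt. Groups and replicate numbers came from the labels. Log2 expression was computed here as −ΔCt centred on C. Blank values (2) and values equal within 1e-06 to the mean of the remaining rats of the group in Ct or ΔCt (22) were left out, which left 460 of 484. RPLP0 was read as Ct minus ΔCt.

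All 4 groups were fitted in 1 limma model (limma 3.58.1, R 4.3.3), without covariates, and the 132 p-values (22 genes, 6 pairs of groups) were adjusted by the Benjamini-Hochberg method. Means were also compared by two-sided exact permutation tests of the animals. The methods' analysis of variance and Dunn's procedure with Bonferroni adjustment were run as alternatives, and the code was tested on simulated data. All 22 genes are named, with every animal value for those that passed or whose groups did not overlap. The members, gene lists and tests were chosen with earlier results of these data known. Same-numbered animals of 28D and 3D are different rats, and the main fits did not pair them. Their deviations correlated at -0.86 to 0.09, which shows no likeness by number, but so few animals cannot exclude a link. Replicates are separate animals, and their number limits the precision.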

Additional observations from a re-analysis of the deposited data

Results flagged for a closer look

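In 4 of 47 groups of values 1 animal lay apart, by a gap to its neighbour that was large for the whole range of the group, which chance alone gives in about 1 of 20 groups. TGF-β1 was -2.95 in replicate 2 of 3D, while the other 3D animals lay between -0.33 and 0.15 (gap 0.85 of the range, n = 4). COL1A1 was 1.58 in replicate 4 of 28D, while the other 28D animals lay between -1.75 and -0.72 (gap 0.69 of the range, n = 6). TNC was 4.92 in replicate 3 of 28D, against -0.62 to 1.42 in the other 28D animals (gap 0.63 of the range, n = 6), and 2.82 in replicate 5 of 3D, against -1.32 to -0.36 in the other 3D animals (gap 0.77 of the range, n = 5). Both TNC values are absent from the deposited fold change table. The TNC value of replicate 5 of 3D had been normalized with 28.5, which sets it 1.34 higher than the RPLP0 Ct of that animal would. All 4 flagged values are log2 expression with the mean of C set to 0, and what else set them apart was not tested.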

How the results depend on the processing

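The count of genes that passed was 7. It was 0 with the Ct alone, 0 with the panel mean in place of RPLP0, 0 with adjusted exact p-values (against 9 unadjusted), 4 on the linear scale (3 of them among the 7, without COL1A1, DCN, MMP-2 and FN), and 6 to 10 in the other settings with all animals: 10 with adjustment over the 22 genes of this pair alone, 9 with every deposited ΔCt value, 8 by least squares with Bonferroni adjustment, 6 by Dunn's procedure (5 of them among the 7, without COL1A1 and FN). Omitting 1 animal at a time gave 2 to 9 genes, with the extremes without replicate 1 and replicate 4 of 3D. The mean over the target genes differed by 0.96, and by 0.39 with the Ct alone (exact permutation p = 0.851) and 0.87 over genes measured in all animals (exact permutation p = 0.0779). Omissions of 1 animal gave 0.64 to 1.17, and for the RPLP0 Ct 0.13 to 1.66 cycles. With the replicate number as a block, 6 genes passed (FN was lost, 1.61, adjusted p = 0.0668), the mean differed by 0.92 (exact permutation p = 0.0625, the smallest that 5 pairs allow) and RPLP0 by 0.45 cycles (exact permutation p = 0.750). The labels give these animals no link other than the number.

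Direction turned only in genes that did not pass. With the Ct alone VEGF was -0.43, FMOD -0.19 and ADAMTS-4 -0.37. With the panel mean as the reference, which by design lowered every difference, VEGF was -0.74, SMAD-2 -0.35, COL3A1 -0.40, BGN -0.66, FMOD -0.77, ADAMTS-4 -0.95, SCX -0.12 and SDC-4 -0.49. ADAMTS-4 was -1.46 from the fold change table. Without wells above Ct 35 VEGF was -0.10 and ADAMTS-4 -0.36, and IL-6 could not be fitted. Blank wells at Ct 40 gave -1.14 for SDC-4 and 1.03 for IL-6. Linear values gave -0.09 for VEGF and -0.05 for FMOD. Omissions of 1 animal gave VEGF -0.10 to 0.68, FMOD -0.24 to 0.78, ADAMTS-4 -0.45 to 0.58 and TIMP-1 -1.91 to 0.31. Of the alternatives chosen after seeing the data, 1 RPLP0 Ct for each animal gave 8 genes and a mean difference of 1.10 (exact permutation p = 0.00433). Leaving out values absent from the fold change table gave 7 genes, 6 of them the same, with ADAMTS-4 at -0.67 and a mean difference of 0.90 (exact permutation p = 0.0152). The causes of these changes were not tested.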

Other observations

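Several values of the ΔCt table that bear on 28D and 3D do not follow into the fold change table: 18 differ by over 0.1 on the log2 scale or have a blank there. FMOD in replicate 6 of 28D is 0.05 in the first and blank in the second, ERG1 in replicate 6 of 28D is 1.94 against 1.58, and TIMP-1 in replicate 5 of 3D, at 5.47, is blank.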
